A study of Mus musculus with 6 samples.

Results

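The genes of MHC class II antigen presentation were examined in mouse bone marrow-derived macrophages (BMDMs) that had been co-cultured with ID8, a mouse ovarian cancer cell line. The group consisted of 9 genes taken by name, out of 54532 genes in the deposited table, and all 9 were present. BMDM RNA was sequenced in 6 libraries. Co-culture with ID8 was common to all. For 3 libraries the ID8 cells were first exposed to cisplatin at 40 µM (a DNA-crosslinking platinum compound), and for the other 3 to phosphate-buffered saline (PBS). By the methods, the marrow came from C57BL/6 mice aged 6 to 8 weeks, and the collected cells are called monocytes there and BMDMs in the labels. No sort that would separate them from ID8 or from other marrow cells is described, and although the methods mention biological replicates, no source says which mice or cultures the 3 libraries of a group came from, so that the p-values measure only the spread between these libraries.

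MHC class II molecules display peptides from engulfed material to CD4+ T cells. An α and a β chain assemble in the endoplasmic reticulum around the invariant chain, which blocks the groove and steers the complex to endosomes. There, proteases trim the invariant chain to a short peptide, and H2-M (H2-DM) exchanges it for peptides of the antigen, a step that H2-O restrains in B cells and some dendritic cells. Transcription of the α and β chain genes depends largely on the coactivator Ciita, which macrophages switch on mainly in response to interferon-γ, and B cells and dendritic cells express it without that signal.

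Values are FPKM, which scale fragments by gene length and by library size and so allow levels of different genes to be compared. FPKM times gene length came out as whole multiples of 1 read in every library, and the recovered reads numbered 15776238 to 17924686 per library. The 9 genes together held 14666 to 15090 reads with cisplatin and 5206 to 6396 with PBS, which was 0.0917% to 0.0957% of a library against 0.0326% to 0.0357%. Numbers of reads speak to counting error only, whereas the SEs and intervals of the fit rest on the spread between libraries. In the data, 12 of 12 macrophage markers were detected, with the lysozyme gene Lyz2 at 3459 ± 80.4 FPKM with cisplatin and 1161 ± 10.7 with PBS (SD, n = 3 each). All 8 B cell markers were detected as well. Of 13 dendritic cell markers, 3 stayed under 1 FPKM in every library. Of 11 ID8 and mesothelial markers 9 were tested, and their summed level was far higher with PBS.

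Of the 9 class II genes, 6 were called higher with cisplatin and none lower. Of the 6, 1 (Ciita) entered the test only through the cisplatin libraries, and it is also among the genes counted as higher below. Under the planned scaling by Y-linked genes none was called higher, and H2-DMa (-0.069) and H2-DMb1 (-0.044) turned. None was called higher either under 2 scalings chosen after the data were seen, by macrophage and by B cell markers, and more genes turned. Under these scalings, in that order, the change of all tested genes had a median of -0.83, -1.16 and -1.23. A gene was called when limma's adjusted p over all 13441 tested genes was under 0.05 and the log2 fold change on log2(FPKM + 1) was at least 1 in size. The background was 4.67% of tested genes called higher and 11.3% called lower. At the adjusted p alone, 8 of the 9 were higher, where 32.9% of all tested genes were. At an unadjusted p under 0.05, 8 of the 9 were higher and none lower, beside 34.3% and 36.4% of all tested genes. Limma voom on the recovered reads called 7 higher and none lower, where it called 9.13% and 13.8% of all tested genes. For the 9 genes the median was a log2 fold change of 1.31, beside -0.0011 over all tested genes. In 8 of the 9, every cisplatin library lay above every PBS library, which held for 35.2% of all tested genes. In RNA from a mixed culture, a change in the number of cells of one type and a change in RNA per cell cannot be told apart.

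**Figure D1:**
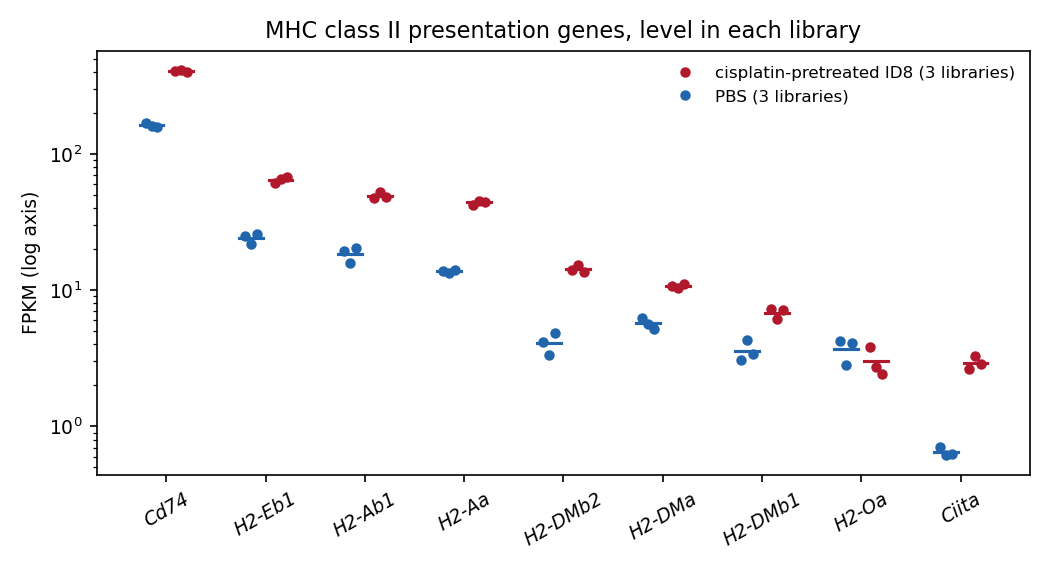
FPKM (log axis) of the 9 genes in each of the 6 libraries, with points for libraries and bars for group means. In 8 genes the cisplatin libraries sit above the PBS libraries, and in H2-Oa they overlap. With scaling by B cell markers, which moves the median of all tested genes to -1.23, 5 of those 8 genes change sign.

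The I-A molecule, the class II molecule that C57BL/6 cells display, is encoded by H2-Aa and H2-Ab1. H2-Aa, its α chain (ENSMUSG00000036594, mm10, chromosome 17, 34282744 to 34287827), was at 42.2, 45.4 and 44.7 FPKM in the cisplatin libraries and at 13.8, 13.3 and 14.1 in the PBS libraries. These groups lay far apart, at 44.1 ± 1.66 against 13.7 ± 0.39 FPKM (SD, n = 3 each), with a log2 fold change of 1.61 (SE 0.043, limma adjusted p = 2.30e-07). H2-Ab1, its β chain (ENSMUSG00000073421, chromosome 17, 34263209 to 34269418), stood at 47.2, 52.6 and 48.3 FPKM with cisplatin and at 19.5, 15.8 and 20.3 with PBS. Its log2 fold change was 1.37 (SE 0.094, limma adjusted p = 1.75e-05), and PBS replicate 2 was the lowest of the 6 libraries.

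H2-Eb1 encodes the β chain of the other class II molecule, I-E, whose α chain gene is inactive in the H2-b haplotype of C57BL/6, so that its transcript has no partner there. H2-Eb1 (ENSMUSG00000060586, chromosome 17, 34305877 to 34316199) was at 61.6, 65.5 and 67.4 FPKM with cisplatin and at 24.9, 21.9 and 26.0 with PBS. The log2 fold change was 1.38 (SE 0.070, limma adjusted p = 3.81e-06). The I-E α pseudogene H2-Ea-ps was listed at 0 in 5 of the 6 libraries.

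Cd74 encodes the invariant chain and was the most abundant of the group. Cd74 (ENSMUSG00000024610, chromosome 18, 60803848 to 60812646) was at 405, 413 and 399 FPKM with cisplatin and at 170, 161 and 158 with PBS. The means of 406 ± 7.14 and 163 ± 6.54 FPKM (SD, n = 3 each) gave a log2 fold change of 1.31 (SE 0.039, limma adjusted p = 3.39e-07). Cd74 alone took 63.4% to 64.7% of the reads of the 9 genes with cisplatin and 64.2% to 67.8% with PBS.

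The peptide exchange factor H2-M pairs an α chain from H2-DMa with a β chain from H2-DMb1 or H2-DMb2. H2-DMb2 (ENSMUSG00000037548, chromosome 17, 34143307 to 34151553) was at 14.1, 15.4 and 13.5 FPKM with cisplatin and at 4.16, 3.34 and 4.83 with PBS, with a log2 fold change of 1.59 (SE 0.11, limma adjusted p = 1.87e-05). H2-DMb1 (ENSMUSG00000079547, chromosome 17, 34153072 to 34160230) was at 7.25, 6.11 and 7.22 FPKM against 3.08, 4.28 and 3.39, with a log2 fold change of 0.78 (SE 0.11, limma adjusted p = 0.000694), short of the fold threshold. The 2 β chain genes share sequence: of the 50-base windows of the longest GENCODE transcript of H2-DMb1, 27.2% occur exactly in H2-DMb2, so that their division of reads is uncertain. H2-DMa (ENSMUSG00000037649, chromosome 17, 34135182 to 34139101) was at 10.8, 10.4 and 11.1 FPKM against 6.23, 5.63 and 5.23, with a log2 fold change of 0.81 (SE 0.066, limma adjusted p = 4.00e-05), also short of the threshold. With limma voom on the recovered reads, H2-DMb1 passed the threshold at 1.04 and H2-DMa missed it at 0.9999. Voom scales libraries by the recovered reads, and its median over all tested genes was 0.085, against -0.0011 in the main fit. With a pseudocount of 0.1 on the FPKM, H2-DMb1 was at 0.93 and H2-DMa at 0.91, both short of the threshold.

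H2-Oa encodes the α chain of H2-O, the inhibitor of H2-M, and was the exception. H2-Oa (ENSMUSG00000024334, chromosome 17, 34092340 to 34095234) was at 3.85, 2.73 and 2.44 FPKM with cisplatin and at 4.21, 2.83 and 4.07 with PBS. The groups overlapped, and the log2 fold change of -0.23 had a 95% interval from -0.63 to 0.17 (limma adjusted p = 0.254). Only 53 to 98 reads per library lay behind these values, and the whole gene lies within the antisense gene BC051537, which was listed at 0.18 FPKM or less. H2-Ob, which encodes the partner β chain and was not among the 9, was called higher. Its level was 18.8 ± 0.55 FPKM with cisplatin and 6.95 ± 0.45 with PBS (SD, n = 3 each), with a log2 fold change of 1.32 (SE 0.055, limma adjusted p = 1.54e-06). The β chain transcript of H2-O thus stood above its α chain transcript in every library of both groups.

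Ciita, the coactivator, was the least abundant with PBS, overlapped H2-Oa with cisplatin, and had the largest ratio of means of the 9 genes. Ciita (ENSMUSG00000022504, chromosome 16, 10480059 to 10528418) was at 2.65, 3.28 and 2.86 FPKM with cisplatin and at 0.71, 0.61 and 0.63 with PBS. It had 430, 514 and 451 reads against 120, 91 and 93, which is a 4.51-fold ratio of mean FPKM. On log2(FPKM + 1) the log2 fold change was 1.25 (SE 0.093, limma adjusted p = 2.49e-05), and limma voom, without the added 1, gave 2.24. All PBS values lay under 1 FPKM, so that Ciita entered the test only through the cisplatin libraries. Dexi, on the opposite strand, overlaps Ciita over 25888 bases and had 2.06 to 3.58 FPKM. No source says if strand was used in counting.

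By level, the order with cisplatin was Cd74, H2-Eb1, H2-Ab1, H2-Aa, H2-DMb2, H2-DMa, H2-DMb1, H2-Oa and Ciita. H2-Oa and Ciita overlapped between libraries, and every other pair of neighbours was apart in all 3 libraries. With PBS the first 4 places were the same, H2-DMa then stood above H2-DMb2, and H2-Oa lay between H2-DMb2 and H2-DMb1 with overlap on both sides. H2-DMb2 and H2-DMa therefore stood in opposite order in the 2 groups. Cd74 stood several times higher than any of the I-A and I-E chains in both groups.

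Ratios between members of one library do not depend on how the libraries were scaled. With 3 libraries against 3, the exact two-sided permutation test cannot go below 0.1 (0.12 after adjustment over the 6 ratios), so none could pass 0.05. The ratio of H2-Eb1 to H2-Ab1 was 1.31 ± 0.075 with cisplatin and 1.31 ± 0.060 with PBS, and the groups overlapped (SD, n = 3 each, exact permutation p = 1). The ratio of Cd74 to the sum of H2-Aa and H2-Ab1 was 4.35 ± 0.16 against 5.07 ± 0.47 (SD, n = 3 each, exact permutation p = 0.1). H2-Aa relative to H2-Ab1 was higher with cisplatin, at 0.89 ± 0.032 against 0.75 ± 0.082, with no overlap (SD, n = 3 each, exact permutation p = 0.1). H2-DMa relative to H2-Aa was 0.24 ± 0.014 with cisplatin and 0.42 ± 0.041 with PBS (SD, n = 3 each, exact permutation p = 0.1). H2-DMa relative to both β chain genes was 0.51 ± 0.027 against 0.75 ± 0.11 (SD, n = 3 each, exact permutation p = 0.1). The inhibitor H2-Oa relative to H2-DMa was 0.357, 0.263 and 0.220 with cisplatin and 0.676, 0.503 and 0.779 with PBS (exact permutation p = 0.1).

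**Figure D2:**
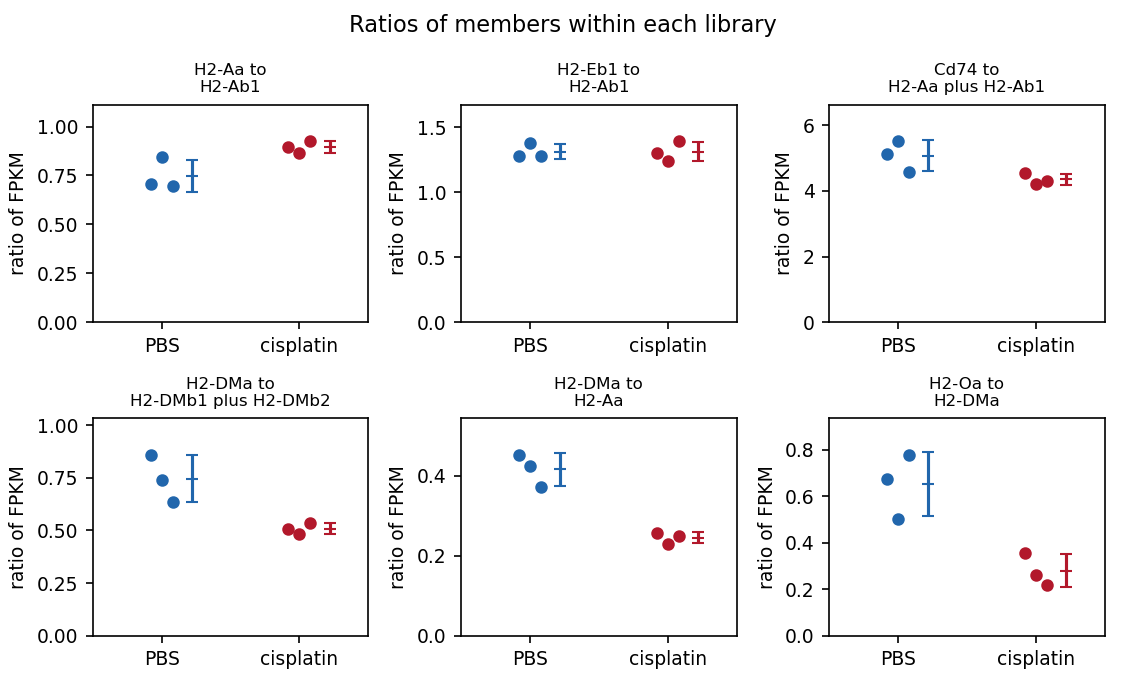
Ratios of FPKM between members within each library, with points for the 3 libraries of a group and bars for the mean ± SD. The groups are apart in 5 ratios and overlap in the ratio of H2-Eb1 to H2-Ab1, at 1.31 in both.

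Class II promoters are known for a shared arrangement of an X box, bound by the RFX complex, and a Y box, bound by NF-Y, on which Ciita assembles. RefSeq windows from 250 bases before to 50 bases after the transcription start (GRCm38.p6) were given for 6 of the 9 genes. They were searched on both strands for ACNGATG, a part of the X box, and for ATTGG, the Y box read on the gene strand. The first occurs in 9.85% and the second in 37.4% of all 32851 windows, and the first followed by the second on the same strand with 5 to 40 bases between in 0.259%. This pair was found in H2-Eb1 (chr17:34305617-34305916, plus strand), H2-DMb1 (chr17:34152941-34153240, plus strand) and H2-DMb2 (chr17:34144999-34145298, plus strand). Its X part began 88, 91 and 120 bases before the start, with 22, 23 and 23 bases between the motifs. The windows of H2-Aa (chr17:34287774-34288073, minus strand) and H2-Oa (chr17:34092129-34092428, plus strand) held a Y box 48 and 43 bases before the start and no such pair. The 2 windows of H2-DMa (chr17:34122582-34122881 and chr17:34125268-34125567) lie upstream of the gene's start in the table and are not read here, and that of H2-DMb2 lies within the gene's span in the table. A match is a description of letters and not of binding. These 5 windows are shown because they let the 3 genes with the pair be read beside the called H2-Aa and the overlapping H2-Oa, 5′ to 3′ on the gene strand, with matches on that strand in capitals.
H2-Eb1: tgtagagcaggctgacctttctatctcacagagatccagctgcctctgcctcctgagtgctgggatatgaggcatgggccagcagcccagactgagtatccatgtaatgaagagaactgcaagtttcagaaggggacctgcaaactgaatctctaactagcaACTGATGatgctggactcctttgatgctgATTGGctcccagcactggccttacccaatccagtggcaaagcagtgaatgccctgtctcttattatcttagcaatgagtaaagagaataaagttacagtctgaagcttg
H2-DMb1: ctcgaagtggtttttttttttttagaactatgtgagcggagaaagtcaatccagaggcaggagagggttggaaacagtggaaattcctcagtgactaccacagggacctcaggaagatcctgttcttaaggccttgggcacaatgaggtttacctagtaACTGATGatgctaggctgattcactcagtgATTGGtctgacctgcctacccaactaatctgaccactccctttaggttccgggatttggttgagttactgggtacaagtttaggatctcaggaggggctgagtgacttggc
H2-DMb2: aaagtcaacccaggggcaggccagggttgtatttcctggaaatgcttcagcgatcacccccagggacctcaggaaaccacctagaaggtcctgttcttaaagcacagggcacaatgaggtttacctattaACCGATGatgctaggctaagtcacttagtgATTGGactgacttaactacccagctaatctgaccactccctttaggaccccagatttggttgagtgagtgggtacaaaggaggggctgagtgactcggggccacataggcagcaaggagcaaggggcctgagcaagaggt
H2-Aa: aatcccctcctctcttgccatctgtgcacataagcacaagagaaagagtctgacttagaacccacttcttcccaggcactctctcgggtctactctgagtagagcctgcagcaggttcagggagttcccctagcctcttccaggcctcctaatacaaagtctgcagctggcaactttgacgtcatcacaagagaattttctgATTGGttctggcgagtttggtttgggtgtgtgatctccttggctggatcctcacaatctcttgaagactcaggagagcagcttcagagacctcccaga
H2-Oa: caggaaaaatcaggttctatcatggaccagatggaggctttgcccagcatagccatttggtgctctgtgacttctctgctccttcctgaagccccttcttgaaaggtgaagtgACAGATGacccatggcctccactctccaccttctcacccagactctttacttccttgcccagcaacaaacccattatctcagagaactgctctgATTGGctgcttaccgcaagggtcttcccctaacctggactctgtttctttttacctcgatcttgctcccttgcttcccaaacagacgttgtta

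**Figure D3:**
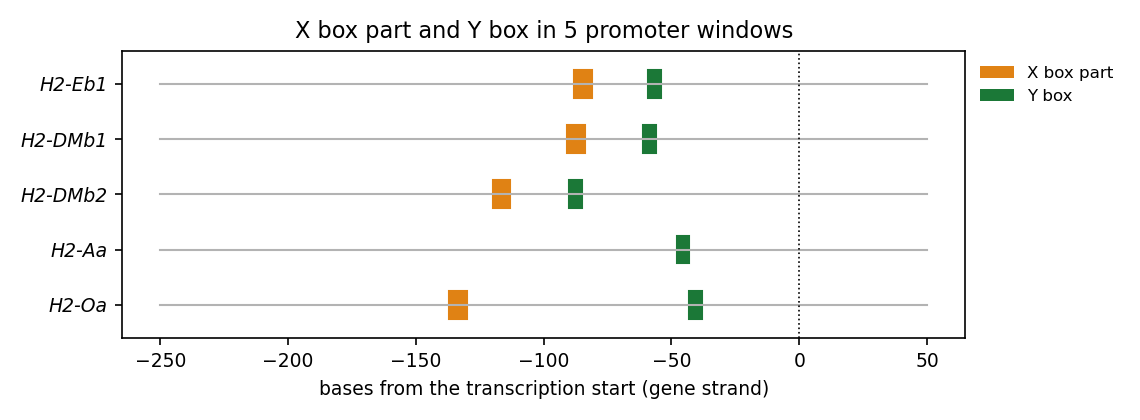
Positions of the X box part (7 bases) and the Y box (5 bases) in 5 promoter windows, in bases from the transcription start on the gene strand. The spacing is alike in H2-Eb1, H2-DMb1 and H2-DMb2, with 22 or 23 bases between, and H2-Aa has the Y box alone on this strand.

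The remaining genes of the pathway were counted by lists. Over all tested genes, 4.67% were called higher and 11.3% lower, and 34.3% were higher and 36.4% lower at an unadjusted p under 0.05. In the class II locus, H2-Eb2, a second E β gene, was also called higher, with a log2 fold change of 1.13 (SE 0.12, limma adjusted p = 0.000152). Of 14 tested genes of class II antigen processing, 3 were called higher and none lower, the median change being 0.49. At an unadjusted p under 0.05, 12 were higher and 2 lower. The called genes were Ctsd (log2 fold change 1.26, adjusted p = 1.41e-07), Ctsz (1.09, adjusted p = 6.78e-06) and Ctse (1.07, adjusted p = 0.000132 in limma), which encode the cathepsins D, Z and E. Ctss, whose product trims the invariant chain, had 185 ± 5.26 FPKM with cisplatin and 114 ± 3.53 with PBS (SD, n = 3 each, log2 fold change 0.69, limma adjusted p = 5.86e-06), below the fold threshold. Ifi30, a lysosomal thiol reductase, had a log2 fold change of 0.47 (limma adjusted p = 0.000153), likewise below it.

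The factors that act with or upstream of Ciita were counted in a pair of lists, in which limma on log2(FPKM + 1) called no gene higher. Of 7 tested genes of the promoter complex none was called in either direction by limma or by limma voom. At an unadjusted p under 0.05, 2 were higher and 2 lower, beside 34.3% and 36.4% of all tested genes. Rfx5, the DNA-binding subunit of RFX, had 4.08 ± 0.36 FPKM with cisplatin and 5.04 ± 0.17 with PBS (SD, n = 3 each, log2 fold change -0.25, limma adjusted p = 0.0152). Of 13 tested regulators of Ciita, none was called higher and 2 were called lower, beside 4.67% and 11.3% of all tested genes. Their median was -0.23. Unadjusted, 2 were higher and 8 lower at p under 0.05, and limma voom called 1, Spi1, higher and 2 lower. One of these was Irf1, an interferon-induced activator of Ciita, which was at 21.94, 22.96 and 21.99 FPKM with cisplatin and at 55.4, 55.1 and 57.4 with PBS (log2 fold change -1.29, SE 0.037, limma adjusted p = 2.87e-07). Every cisplatin library was thus above every PBS library in Ciita and below it in Irf1. Ifng itself, at 0.28 FPKM or less in every library, was below the filter. The myeloid factors Spi1 and Irf8 were higher but not called, with log2 fold changes of 0.92 (limma adjusted p = 8.46e-06) and 0.48 (limma adjusted p = 0.000126). Of 5 genes of class II surface turnover none was called by limma or limma voom. At an unadjusted p under 0.05, 2 were higher, where 34.3% of all tested genes were.

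Class I presentation genes are listed beside class II because both pathways respond to interferon. Of 17 tested, limma called none higher and 4 lower, beside 4.67% and 11.3% of all tested genes. Limma voom called the same numbers, and the median was -0.61. At an unadjusted p under 0.05, 2 were higher and 14 lower, beside 34.3% and 36.4% of all tested genes. The largest changes were those of Tapbp (-1.83, limma adjusted p = 1.14e-07), Tap1 (-1.60, limma adjusted p = 2.72e-07) and Psmb9 (-1.27, limma adjusted p = 2.47e-05), which encode the peptide-loading chaperone tapasin, a peptide transporter and an immunoproteasome subunit. B2m, the light chain of class I, had a log2 fold change of -0.72 (limma adjusted p = 1.25e-05), and the class I coactivator Nlrc5, a relative of Ciita, of -0.56 (limma adjusted p = 7.48e-05), both short of the fold threshold. Of 8 costimulatory ligands, Cd48 (1.12, limma adjusted p = 6.34e-06), Cd80 (1.11, limma adjusted p = 5.49e-05) and Cd86 (1.06, limma adjusted p = 5.26e-05) were called higher. The 4-1BB ligand gene Tnfsf9 (-1.06, limma adjusted p = 4.02e-05) was called lower. At an unadjusted p under 0.05, 6 of the 8 were higher and 2 lower, and limma voom called 4 higher and 1 lower. Tnfsf4, with all PBS values under 1 FPKM, missed the limma call at 0.96 and was at 1.69 with voom.

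**Figure D4:**
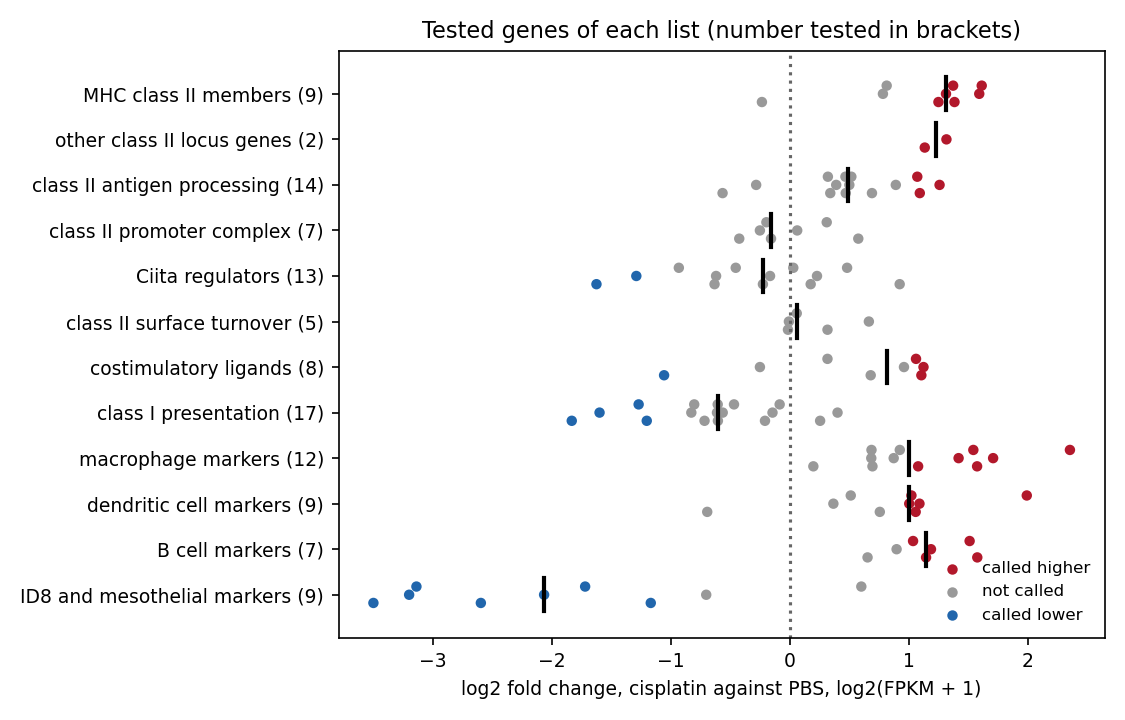
Log2 fold changes (cisplatin against PBS, log2(FPKM + 1)) of the tested genes of each list, one point a gene, with a bar at the list's median and a dotted line at the median of all tested genes. The medians of class II (1.31) and class I (-0.61) lie on opposite sides of that line, and those of the macrophage, dendritic cell and B cell marker lists lie between 1.0 and 1.15. Scaling by the B cell markers takes the class II median to -0.042 and that of all tested genes to -1.23.

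Most markers of class II-expressing cell types were also higher with cisplatin as deposited. Over all tested genes, 4.67% were called higher and 11.3% lower. Of 7 tested B cell markers 5 were called higher and none lower, the median change being 1.15. The summed level of all 8 was 488 to 497 FPKM with cisplatin and 217 to 225 with PBS. Ms4a1 (CD20), Fcer2a (CD23) and Cd79a, a chain of the B cell receptor complex, were the 3 with the largest change on log2(FPKM + 1), with log2 fold changes of 1.58, 1.51 and 1.19 (limma adjusted p = 4.06e-07, 7.82e-06 and 2.17e-06). Fcer2a had 12 to 16 reads per PBS library and entered the test only through the cisplatin libraries. In the macrophage list 6 of 12 were called higher, of which 1 (Mertk) entered the test only through the cisplatin libraries, with a median of 1.0 and a summed level of 4239 to 4397 FPKM against 1648 to 1659. On log2(FPKM + 1), C1qb (2.35), C1qa (1.71) and Lyz2 (1.57) changed most (limma adjusted p = 1.45e-06, 2.59e-05 and 1.14e-07). By the ratio of mean FPKM, Mertk was the largest of the list at 5.90, from a PBS mean of 0.29 FPKM. In the dendritic cell list 5 of 9 tested were called higher, with a median of 1.0 and a summed level of 233 to 253 FPKM against 148 to 159, most of it from Cd24a. Siglech (1.99, limma adjusted p = 5.61e-07), Clec10a (1.09, limma adjusted p = 0.000182) and Batf3 (1.06, limma adjusted p = 0.00142) had the largest changes among those called. Clec10a, Batf3 and Flt3, which are 3 of the 5, entered the test only through the cisplatin libraries. Zbtb46, a transcription factor of conventional dendritic cells, went the other way, at 0.61 ± 0.026 FPKM with cisplatin and 1.60 ± 0.095 with PBS (SD, n = 3 each, log2 fold change -0.69, limma adjusted p = 0.00039), and passed the filter only through the PBS libraries. Flt3, of dendritic cell progenitors, had 2.14 ± 0.12 FPKM against 0.55 ± 0.10, and Itgax (CD11c) 3.43 ± 0.24 against 1.62 ± 0.14 (SD, n = 3 each). Xcr1, Clec9a and Cd209a stayed under 1 FPKM in every library.

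Most markers of the tumour cells were lower with cisplatin. Over all tested genes, 11.3% were called lower and 4.67% higher, and 36.4% were lower and 34.3% higher at an unadjusted p under 0.05. Of 9 tested ID8 and mesothelial markers 7 were called lower and none higher, while at an unadjusted p under 0.05, 8 were lower and 1 higher. The latter was Cdh1 (E-cadherin), at 5.41 ± 0.53 FPKM with cisplatin and 3.24 ± 0.52 with PBS (SD, n = 3 each, log2 fold change 0.60, limma adjusted p = 0.00238). The summed level of all 11 was 184 to 199 FPKM with cisplatin and 1036 to 1106 with PBS. Krt19, an epithelial keratin, was at 46.8, 54.0 and 52.5 FPKM against 603, 554 and 605, with a log2 fold change of -3.50 (limma adjusted p = 7.18e-08). On log2(FPKM + 1), Gpm6a (-3.20, limma adjusted p = 2.72e-07) and Wt1 (-3.14, limma adjusted p = 5.39e-08) were the next. By limma voom Gpm6a fell further than Krt19, at -3.53 against -3.44. ID8 comes from the ovary of a female mouse and so carries no Y chromosome. Among genes on Y (Uty, Kdm5d, Eif2s3y and Ddx3y) the summed level was 41.6 to 42.8 FPKM with cisplatin and 19.5 to 22.7 with PBS. The part of cell composition in the class II changes was not tested.

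The class II genes were therefore also expressed relative to these lists. Scaled by the Y-linked genes, the median change of the 9 genes went from 1.31 to 0.41, while the median of all tested genes moved to -0.83. None of the 9 was then called, where 0.632% of all tested genes were called higher and 38.5% lower. Scaled by the macrophage markers it was 0.028, with all tested genes at -1.16, and scaled by the B cell markers -0.042, with all tested genes at -1.23. The last 2 scalings were chosen after the data were seen. Under these 3 scalings H2-Aa, H2-DMb2 and Ciita had log2 fold changes above 0 with a limma adjusted p under 0.05, from 0.21 to 0.66, from 0.31 to 0.72 and from 0.41 to 0.68. Cd74, H2-Ab1 and H2-Eb1 were between -0.15 and 0.41, on both sides of 0. H2-DMa and H2-DMb1 fell below 0 in all 3, to as low as -0.48 and -0.43. H2-Oa was between -1.34 and -0.996. It was the 1 member called lower with the macrophage markers, where 61.5% of all tested genes were called lower and 0.357% higher, and with the B cell markers, where 65.7% were called lower and 0.32% higher. Each scaling multiplies all genes of a library by the same factor and leaves the FPKM ratios between them within that library as they were, whereas on log2(FPKM + 1) low genes such as Ciita shift by less.

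**Figure D5:**
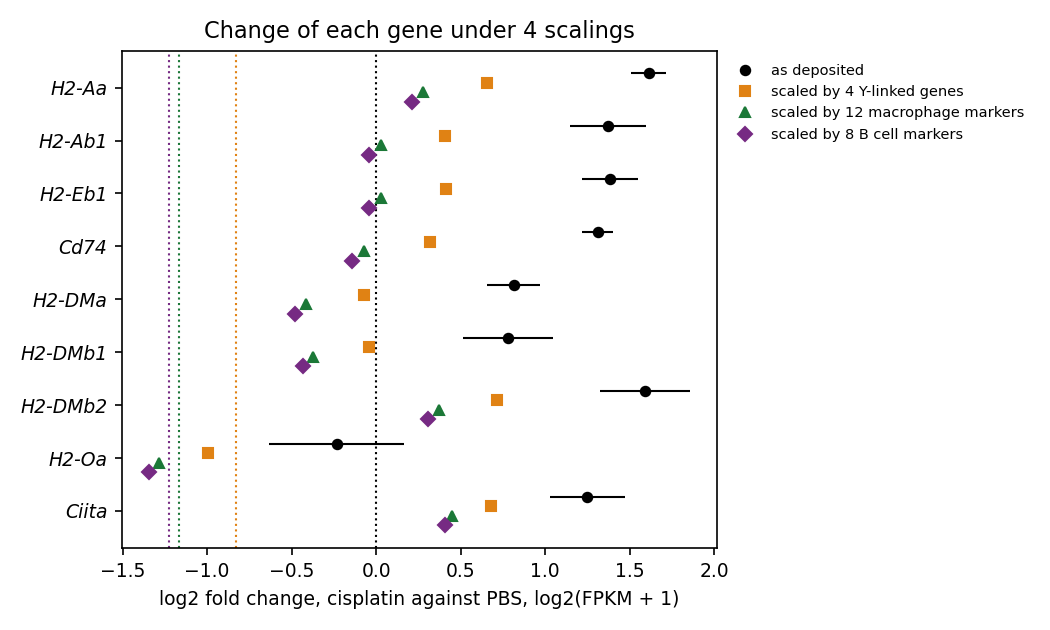
Log2 fold change (cisplatin against PBS, log2(FPKM + 1)) of each gene as deposited, with its 95% interval, and after scaling by 3 marker lists, with dotted lines at the median of all tested genes under each. As deposited 8 genes lie above 0. Scaled by B cell markers H2-Aa (0.21), H2-DMb2 (0.31) and Ciita (0.41) stay above 0, and H2-DMa (-0.48), H2-DMb1 (-0.43), Cd74, H2-Ab1 and H2-Eb1 change sign.

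The tested genes whose pattern over the 6 libraries was nearest to the mean of H2-Aa, H2-Ab1, H2-Eb1 and Cd74 were Lsp1, Chst3, Slc3a2, Lmo2 and Itgam. The measure was the root-mean-square distance between log2(FPKM + 1) values centred on their mean, over 2956 genes with a mean of at least 20 FPKM. It ran from 0.049 for Lsp1 to 0.067 for Itgam, and for the 4 genes that make the mean it was 0.040 (H2-Eb1), 0.065 (H2-Ab1), 0.080 (Cd74) and 0.101 (H2-Aa), so that the named genes lay no farther from it than H2-Aa and Cd74. Lsp1, which encodes an actin-binding protein of leukocytes, was at 37.2 ± 0.74 FPKM with cisplatin and 13.7 ± 0.27 with PBS (SD, n = 3 each). The distance is set mostly by the difference between the groups.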

How the data were processed

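RNA of 6 BMDM co-culture libraries (3 per group, grouped by the treatment label) was analysed from the deposited FPKM table, 54532 genes. The submitters' processing notes name fastp, HISAT2 2.0.5, featureCounts 1.5.0-p3 and mm10, whereas the study's methods name LifeScope; which of them the authors used to make the deposited FPKM was not settled, and FPKM hides reads shared between like genes. Reads were recovered by dividing FPKM times length by the value of 1 read (100% of values under 200 reads came out whole, within 0.05).

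Genes with FPKM of at least 1 in at least 3 libraries (13441) were fitted as log2(FPKM + 1) on group in limma 3.58.1 (R 4.3.3, eBayes with a trend), with Benjamini-Hochberg adjustment over all of them. The added 1 understates changes of low genes. The fit was tested on simulated data. Ratios used exact permutation tests (scipy 1.17.1). The text names the 9 members, in each list up to 3 called genes with the largest change, fixed genes (Rfx5, Irf8, Spi1, Nlrc5, B2m, Ctss, Ifi30, Itgax, Flt3 and Krt19) and the 5 nearest genes in pattern. H2-Ob, H2-Ea-ps, Ifng, Xcr1, Clec9a, Cd209a, Cd24a, Zbtb46, Mertk, Tnfsf4 and Cdh1 were named after their values were seen or as parts of a list. Some genes that the rule would name are not reported here. Members and lists were chosen with earlier results of these data known. Alternatives were other pseudocounts, filters, scalings and variance models, limma voom, protein-coding genes only, the replicate block and leaving out each library.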

Additional observations from a re-analysis of the deposited data

How the results depend on the processing

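Same-numbered libraries did not deviate together over all tested genes (correlations of deviations from group means -0.10, -0.086 and -0.024). Such correlations cannot show that no mice or cultures were shared, and no source says if the numbers pair the libraries. With the replicate block 6 members were called higher, as without it, and the block changed no call among the 9. Leaving out each library in turn also left 6 called higher and none lower, with a median log2 fold change from 1.27 to 1.35, against 1.31 with all libraries. The median was 1.37 with a filter at 5 FPKM, which removes H2-Oa and Ciita, 1.40 with TPM rescaling, 1.42 with a pseudocount of 0.1, 1.42 with quantile normalisation and 1.5 with voom. Over all tested genes the median was 0.10 with quantile normalisation and 0.085 with voom, against -0.0011 in the main fit. With the other settings of that sentence it was from -0.0076 to 0.019.

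Scaling by the Y-linked genes, the macrophage markers or the B cell markers ended the calls, while the median of all tested genes moved to -0.83, -1.16 and -1.23. With each of the 3 scalings 0 members were called higher. By the Y-linked genes none was called lower, the median was 0.41, and H2-DMa (-0.069) and H2-DMb1 (-0.044) turned. By the macrophage markers 1 (H2-Oa) was called lower, the median was 0.028, and Cd74 (-0.073), H2-DMa (-0.42) and H2-DMb1 (-0.37) turned. By the B cell markers 1 (H2-Oa) was called lower, the median was -0.042, and H2-Ab1 (-0.042), H2-Eb1 (-0.042), Cd74 (-0.15), H2-DMa (-0.48) and H2-DMb1 (-0.43) turned. The macrophage and B cell scalings were added after the data were seen. Each is set by genes that differ between the groups as deposited, which moves all genes down; which scaling matches the cells was not tested.

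Over all genes, against 628 called higher and 1514 lower, a pseudocount of 0.1 gave 973 and 1981, voom 1227 and 1861, the Y-linked scaling 85 and 5181, the macrophage scaling 48 and 8261, and the B cell scaling 43 and 8830. Depth limits H2-Oa, H2-DMa, H2-DMb1, H2-DMb2 and Ciita, with under 200 reads per library in at least 1 group. Members not called are not shown to be equal between groups.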
